A study of Mus musculus with 24 samples.

Results

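The genes described here are a set of transcripts that glucocorticoid hormones are known to induce, together with the metallothioneins Mt1, Mt2 and Mt3. Members were taken as every array probe whose gene name was Sgk1, Fkbp5, Tsc22d3, Txnip, Plin4 (S3-12 on the array), Pdk4, Zbtb16, Mt1, Mt2 or Mt3. Of these 10 genes, 9 had a probe under that name and all 9 entered the tests, among 26089 genes tested in all. They were read by 16 of 41174 probes. Zbtb16 was not analysed here. No sample was given a hormone and no hormone was measured, so the name of the set comes from general knowledge and could not be checked in these data.

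Glucocorticoids are steroid hormones of the adrenal cortex that are released during stress and across the day. They cross the cell membrane and bind the glucocorticoid receptor and, with higher affinity, the mineralocorticoid receptor, both of which are abundant in the hippocampus and act as transcription factors in the nucleus. Metallothioneins are small cysteine-rich proteins that bind zinc and copper. Their genes Mt1 and Mt2 are induced by metals through the sensor Mtf1 and also by glucocorticoids, whereas Mt3 is found mainly in the brain and is known as growth inhibitory factor.

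Promoter sequences are shown for Sgk1, the member that rose with training at 16 months, and for Mt2 and Mt1, neighbouring metallothionein genes, the first of which had the largest change at 3 months. RefSeq lists 16 start sites for the 9 members (GRCm38.p6), and each was searched on both strands from 250 bases before the start to 50 after it. Capitals mark matches. In Sgk1 they mark the palindromic form of the glucocorticoid response element, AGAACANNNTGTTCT, which overlaps its own half-site TGTTCT. In Mt2 and Mt1 they mark the core of the metal response element, TGCACNC or TGCGCNC, in either orientation.
Sgk1 promoter, chr10:21993640-21993889, + strand: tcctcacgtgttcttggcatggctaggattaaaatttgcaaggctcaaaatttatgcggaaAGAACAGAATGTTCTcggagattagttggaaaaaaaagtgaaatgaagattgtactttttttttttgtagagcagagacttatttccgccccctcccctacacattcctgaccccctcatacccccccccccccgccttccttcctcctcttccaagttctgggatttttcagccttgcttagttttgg
Mt2 promoter, chr8:94172368-94172617, + strand: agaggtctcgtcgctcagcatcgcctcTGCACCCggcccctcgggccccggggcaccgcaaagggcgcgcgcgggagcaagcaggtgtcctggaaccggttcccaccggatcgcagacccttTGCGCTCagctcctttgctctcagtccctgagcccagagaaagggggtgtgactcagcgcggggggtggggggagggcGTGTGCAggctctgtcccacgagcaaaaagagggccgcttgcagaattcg
Mt1 promoter, chr8:94178839-94179088, + strand: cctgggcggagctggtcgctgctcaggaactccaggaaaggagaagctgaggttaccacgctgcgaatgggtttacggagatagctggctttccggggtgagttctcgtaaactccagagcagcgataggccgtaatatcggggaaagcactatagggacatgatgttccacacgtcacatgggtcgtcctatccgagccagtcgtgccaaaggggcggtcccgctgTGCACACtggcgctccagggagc

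The palindrome begins 189 bases before the fifth of the Sgk1 starts, and it is held by 3 of all 32851 RefSeq promoter windows of this length (0.00913%). No other member window holds it, those of the other Sgk1 starts included. The half-site alone is held by 19% of all windows, and among the members only by windows of Sgk1 and Tsc22d3. The metal response core occurs 4 times in the Mt2 window, 3 of them in the bases shown, and at least 4 copies are found in 0.517% of windows. The Mt1 window holds 3 copies, 1 of them in the bases shown, and at least 3 copies are found in 1.97% of windows. The Mt3 window holds 1 copy, as do 25.7% of all windows at the least. Among the other members, the Txnip window and 1 Sgk1 window, not the one shown, hold 1 copy each. These matches are descriptions of the letters in the windows.

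The mice were C57Bl/6, hippocampal RNA was taken from 1 mouse per array, and each of the 6 groups held 4 mice. At 16 months there were mice killed 1 h after contextual fear conditioning and handled controls that met no behavioural test. At 3 months there were mice killed 1 h after fear conditioning, mice 1 h after the same chamber without a shock (context), mice 1 h after a shock given on entry and before exploring (shock-context), and handled controls. Fear conditioning was 3 min in the chamber and then a foot shock of 0.7 mA for 2 s. RNA of a whole hippocampus mixes all its cell types, so fewer cells of a type and less RNA per cell cannot be told apart. The p-values rest on the spread between mice, pooled per gene over all 6 groups and with any differences between array slides left in it.

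A first scanning run covered the 16 arrays of fear and control mice, on 4 slides that each carried 1 array of those 4 groups, and a second run covered the 8 arrays of context and shock-context mice, on 2 slides. The 75th percentile of signal was 757 to 2137 in the first run and 3101 to 8369 in the second, so comparisons across runs cannot be told apart from the run. Levels below are log2 signals relative to the 75th percentile of the array, and a level can only be compared between arrays at the same probe. Of the 16 member probes, 15 were well above background on all 24 arrays and 0 were saturated on any. All 10 hippocampal excitatory neuron markers were well above background on every array, with a summed linear level of 111 to 117 in 3-month fear mice against 108 to 118 in 3-month controls. Single markers changed by -0.44 to 1.93 there, with 2 called higher and 1 lower (adjusted p under 0.05), against 13.1% and 30.2% of all genes. The sum was 88.4 to 108 in 16-month fear mice against 97.5 to 131 in 16-month controls. In the second run it was 80.2 to 92.2 in context mice and 85.4 to 103 in shock-context mice. Markers of tissue next to the hippocampus moved with the groups: 9 measured choroid plexus markers summed to 2.08 to 5.08 in 3-month fear mice against 36.0 to 68.3 in 3-month controls, with 37.9 to 49.3 in 16-month fear mice against 43.9 to 65.6 in 16-month controls. All 9 of them fell at 3 months (Ttr, the transthyretin gene, by -4.83 on the log2 scale), where 30.2% of all genes were called lower. Each of the 9 had a probe well above background on all 24 arrays. The 10 thalamus markers summed to 18.7 to 28.5 in 16-month fear mice against 10.7 to 14.8 in 16-month controls, and to 16.8 to 19.1 in 3-month fear mice against 9.48 to 12.1 in 3-month controls. Of these 10, 4 were called higher and 0 lower at 16 months (-0.23 to 2.20), against 0.123% and 0.0192% of all genes. At 3 months 8 were called higher and 1 lower (-0.80 to 2.09), against 13.1% and 30.2% of all genes. The part of these markers in the results below was not tested. Fos, an early gene of neuronal activity, rose by 1.78 ± 0.29 (SE) in 16-month fear mice (limma, adjusted p = 0.0113) and by 2.41 ± 0.29 in 3-month fear mice (adjusted p = 1.51e-06), while Egr1 and Arc passed the threshold at neither age.

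**Figure D1:**
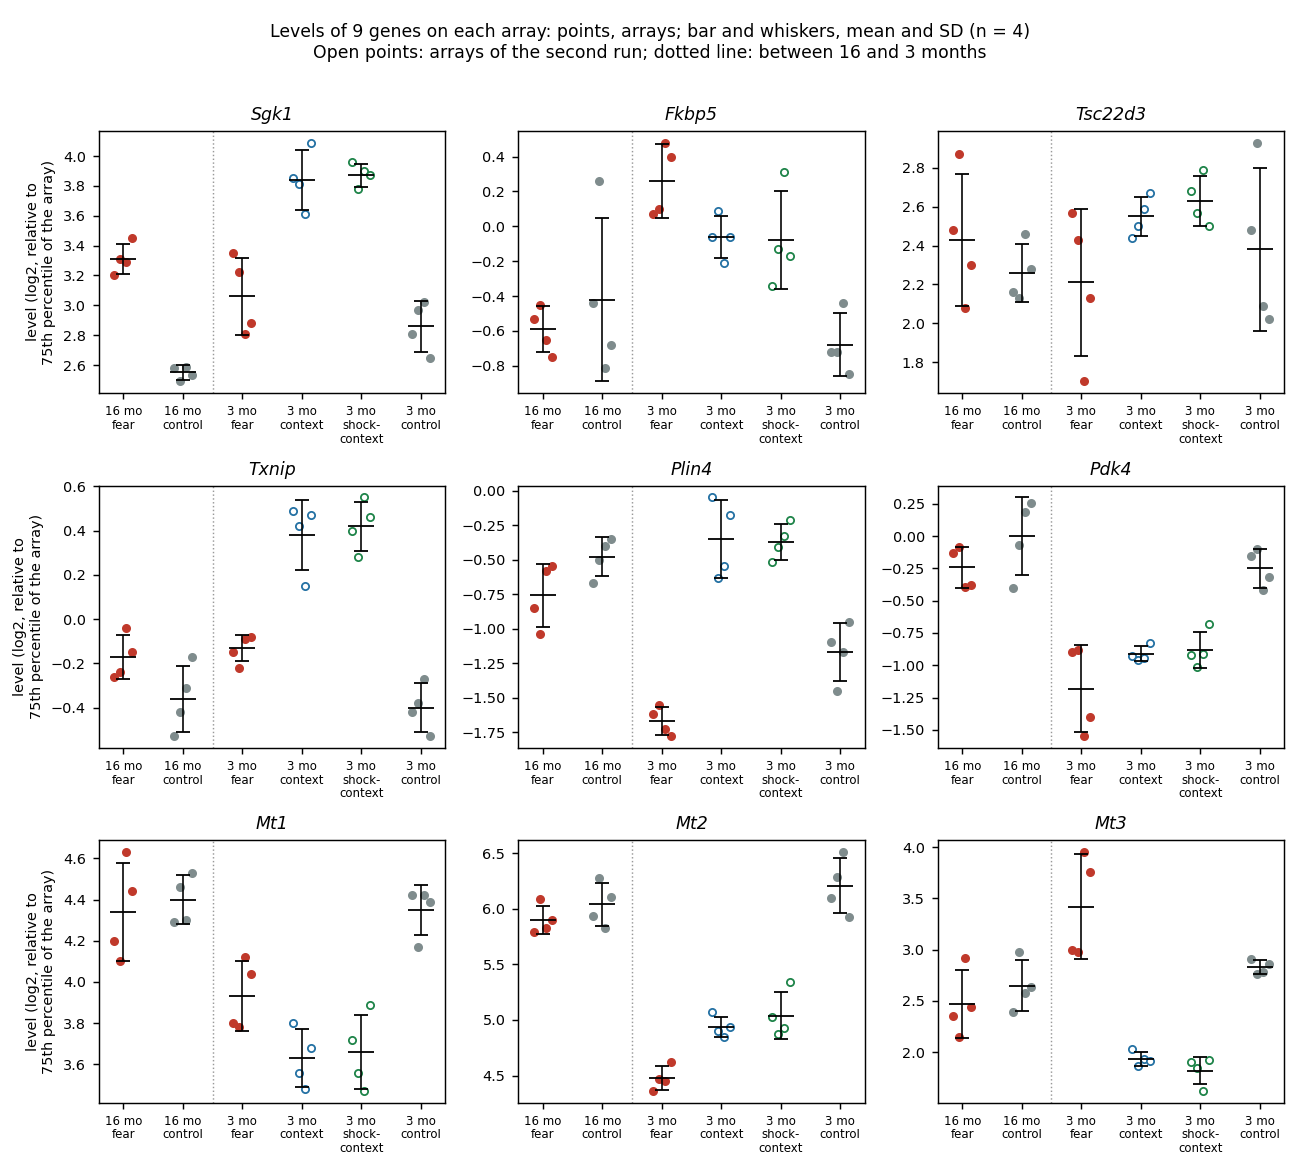
Level of each of the 9 members on each of the 24 arrays, as log2 signal relative to the 75th percentile of the array. Points are arrays (open points belong to the second run), bars and whiskers are the mean and SD of 4 arrays, and the vertical scale differs between panels. The 4 fear arrays at 16 months lie above the 4 controls for Sgk1, and the 4 fear arrays at 3 months lie far below the controls for Mt2.

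At 3 months, fear conditioning went with changes of both signs in this set. Fkbp5, Mt3 and Txnip rose, and Mt2, Pdk4, Plin4 and Mt1 fell, so 7 of 9 members passed the threshold (limma, two-sided, Benjamini-Hochberg adjusted p under 0.05 over all genes), with 3 higher and 4 lower. In the same comparison 43.3% of all genes passed, 13.1% of them higher and 30.2% lower as shares of all genes, so a high count of called members is read against a high background. The median change of the members was -0.17 on the log2 scale, and that of all genes was -0.34. Changes are therefore also given relative to that median. At 16 months only 1 of 9 members passed, Sgk1, which rose, where 0.142% of all genes passed (0.123% higher and 0.0192% lower). The median change there was -0.14 over the members and -0.08 over all genes. Arrays 1 and 2, and arrays 3 and 4, of the fear and control groups were taken as pairs after an earlier analysis. Their consensus correlation was 0.37 over all genes, but not every pair lay close together. The correlation of deviations from the group mean ran from -0.661 (16-month control arrays 1 and 2) to 0.39 (16-month control arrays 3 and 4). With each such pair averaged, 3 members passed at 3 months (Mt2, Pdk4 and Fkbp5) and 0 at 16 months.

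The difference between the ages was tested directly, as the fear change at 16 months minus that at 3 months. It passed for 5 of 9 members, where 23.9% of all genes passed (15.8% higher and 8.02% lower). The change was higher at 16 months for Mt2, Pdk4 and Sgk1, and lower for Fkbp5 and Mt3. The median of this difference was 0.34 over the members and 0.23 over all genes. With the array pairs averaged 1 member passed, Mt2, and with the slide as a fixed block, in a fit of the 16 arrays of the first run, 3 passed (Mt2, Fkbp5 and Sgk1).

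**Figure D2:**
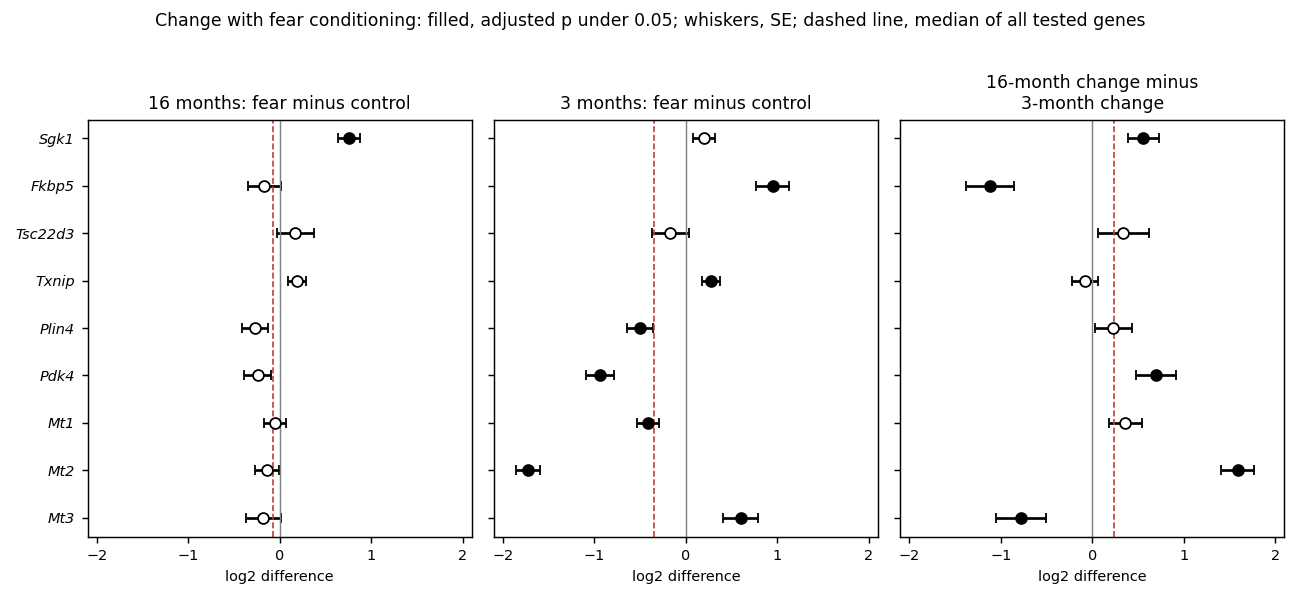
Log2 difference between fear and control arrays for each member at 16 months and at 3 months, and the 16-month change minus the 3-month change. Points are estimates of the fit with their SE, filled where the adjusted p is under 0.05, and the dashed line is the median of all tested genes (-0.08, -0.34 and 0.23). Sgk1 is the only filled point at 16 months, and 7 of 9 points are filled at 3 months.

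Sgk1 encodes a serine and threonine kinase that regulates ion channels and transporters. Its level was 3.20, 3.31, 3.29 and 3.45 in the 16-month fear mice, against 2.58, 2.49, 2.59 and 2.53 in the 16-month controls. Every fear mouse lay above every control of that age. The difference was 0.76 ± 0.12 (SE), a 1.70-fold rise (limma, adjusted p = 0.00941, n = 4 each), and on the 4 slides it was 0.62, 0.81, 0.70 and 0.92. At 3 months its level was 3.35, 3.22, 2.81 and 2.88 in fear mice, against 2.81, 2.97, 3.02 and 2.65 in controls. These groups overlapped, with arrays 1 and 2 of the fear group above all controls and arrays 3 and 4 among them. The 3-month difference was 0.20 ± 0.12 (limma, adjusted p = 0.17), or 0.55 relative to the median of all genes. The change at 16 months exceeded that at 3 months by 0.56 ± 0.17 (limma, adjusted p = 0.0186), with differences on the 4 slides between 0.08 and 0.92. Under quantile normalization the 3-month rise of Sgk1 was 0.47 and passed the threshold (adjusted p = 0.00252, over alternatives 0.00252 to 0.382), and the difference between ages, 0.28 there, was called in 8 of 14 other settings. The 16-month call was lost in 6 of 14 other settings, among them the slide as a fixed block (adjusted p = 0.083), and without 16-month fear array 4 (0.72, adjusted p = 0.0554), with a rise between 0.66 and 0.83 over all of these.

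A second Sgk1 probe, A_52_P352246, lies 100840 bases before the first on mm9 (chr10:21618550-21618609, against chr10:21719390-21719449). It was well above background on 16 of 24 arrays and on none of the 8 arrays of the second run. Tested with every probe of the array, it differed by -0.94 ± 0.33 in 16-month fear mice (limma, adjusted p = 0.235) and by -0.41 ± 0.33 in 3-month fear mice (adjusted p = 0.306). Neither passed, and both estimates have the opposite sign to the main probe. At 16 months the fear mice (-5.90 to -4.33) all lay below the controls (-4.24 to -3.89) at this second probe. The array lists it under another accession than the main probe.

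Fkbp5 encodes a cochaperone of the glucocorticoid receptor that lowers its affinity for the hormone, and it is itself induced by the receptor. Its level was -0.53, -0.45, -0.65 and -0.75 in 16-month fear mice, against -0.44, 0.26, -0.81 and -0.68 in 16-month controls. Control 2 stood high and the other arrays of both groups overlapped, with a difference of -0.17 ± 0.18 (limma, adjusted p = 0.69). At 3 months its level was 0.07, 0.10, 0.48 and 0.40 in fear mice, against -0.72, -0.72, -0.44 and -0.85 in controls. All fear mice lay above all controls, and the rise was 0.95 ± 0.18, or 1.93-fold (limma, adjusted p = 0.000258, n = 4 each). It was 0.79, 0.82, 0.92 and 1.26 on the 4 slides, and 1.29 relative to the median of all genes. The fear change at 16 months was lower than that at 3 months by 1.12 on the log2 scale (-1.12 ± 0.26, limma, adjusted p = 0.00297), with the same sign on all 4 slides.

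The 3 probes of Fkbp5 did not move together. A_51_P383689, which stands for the gene, and A_52_P337899 lie 715 bases apart near the end of the gene on chromosome 17, minus strand, and both rose at 3 months (0.59 ± 0.15 for A_52_P337899, limma over every probe, adjusted p = 0.00353). The third, A_52_P481493, lies 38117 bases upstream of the first in transcription order, at chr17:28574995-28575054 on mm9. Its sequence is shown because it reads the same gene and gave another answer.
Fkbp5 probe A_52_P481493: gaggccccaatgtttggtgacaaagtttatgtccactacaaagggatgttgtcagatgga
At this probe the 3-month change was 0.04 ± 0.16 (adjusted p = 0.825), with 0.62 and 0.57 on slides 1 and 2 and -0.51 and -0.49 on slides 3 and 4. Its 16-month change was 0.47 ± 0.16 (adjusted p = 0.211), and the 4 fear mice of that age all lay above the 4 controls. Of the 3 probes, the rise of Fkbp5 at 3 months was thus called at the 2 with the lowest coordinates.

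Tsc22d3 encodes GILZ, a leucine zipper protein that carries part of the anti-inflammatory action of glucocorticoids. At its main probe the level was 2.48, 2.87, 2.08 and 2.30 in 16-month fear mice, against 2.16, 2.13, 2.46 and 2.28 in 16-month controls. At 3 months it was 2.57, 2.43, 1.70 and 2.13 in fear mice, against 2.48, 2.93, 2.09 and 2.02 in controls. The groups overlapped at both ages, and the changes were 0.17 ± 0.20 at 16 months (limma, adjusted p = 0.723) and -0.17 ± 0.20 at 3 months (adjusted p = 0.479). The 3-month sign was not stable: it was 0.04 under quantile normalization and 0.10 in the deposited values. A neighbouring probe, A_51_P235821, did not pass either, with 0.18 ± 0.18 at 16 months and 0.15 ± 0.18 at 3 months. Another probe, A_52_P600518, lies 684 bases from the main one and rose by 0.86 ± 0.26 at 3 months (limma over every probe, adjusted p = 0.0105). Its level was 0.53, 0.48, 0.43 and 0.38 in 3-month fear mice, against -0.20, -0.53, -0.54 and -0.33 in 3-month controls, with no overlap. At 16 months its change was 0.52 ± 0.26 (limma over every probe, adjusted p = 0.386), with control array 2 low at -1.82. The difference between the ages did not pass at this probe (-0.33 ± 0.36, adjusted p = 0.561).

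Txnip encodes thioredoxin-interacting protein, which binds thioredoxin and limits glucose uptake. Its level was -0.26, -0.24, -0.04 and -0.15 in 16-month fear mice, against -0.53, -0.42, -0.31 and -0.17 in 16-month controls, and the groups overlapped. The 16-month difference was 0.19 ± 0.10 (limma, adjusted p = 0.387), positive on all 4 slides. At 3 months its level was -0.15, -0.22, -0.09 and -0.08 in fear mice, against -0.42, -0.38, -0.27 and -0.53 in controls, with no overlap. The 3-month rise was 0.27 ± 0.10, or 1.20-fold (limma, adjusted p = 0.0307). The call was lost in 5 of 14 other settings and on leaving out any of 5 of the 8 arrays (fear arrays 1, 3 and 4, control arrays 1 and 4; values 0.22 to 0.31, adjusted p up to 0.0951). The test of the difference between the ages did not pass (-0.08 ± 0.14, adjusted p = 0.732).

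A second Txnip probe moved far more at 3 months. Probe A_52_P420792 spans 175 bases of chromosome 3 on mm9 (chr3:96363085-96363259) with 60 bases of sequence, which therefore do not lie together on the genome, and it is shown for that reason.
Txnip probe A_52_P420792: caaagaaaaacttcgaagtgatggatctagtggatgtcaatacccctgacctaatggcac
Its level was -3.99, -4.38, -4.06 and -4.28 in 16-month fear mice, against -4.23, -3.71, -4.08 and -4.06 in 16-month controls. At 3 months it was -3.03, -3.02, -3.19 and -3.29 in fear mice, against -4.34, -4.49, -4.57 and -4.26 in controls. The groups overlapped at 16 months and were far apart at 3 months. The change was -0.16 ± 0.15 at 16 months (limma over every probe, adjusted p = 0.658) and 1.28 ± 0.15, a 2.43-fold rise, at 3 months (adjusted p = 7.81e-07). The difference between the ages was -1.44 ± 0.21 (adjusted p = 4.56e-05), against -0.08 ± 0.14 at the main probe.

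**Figure D3:**
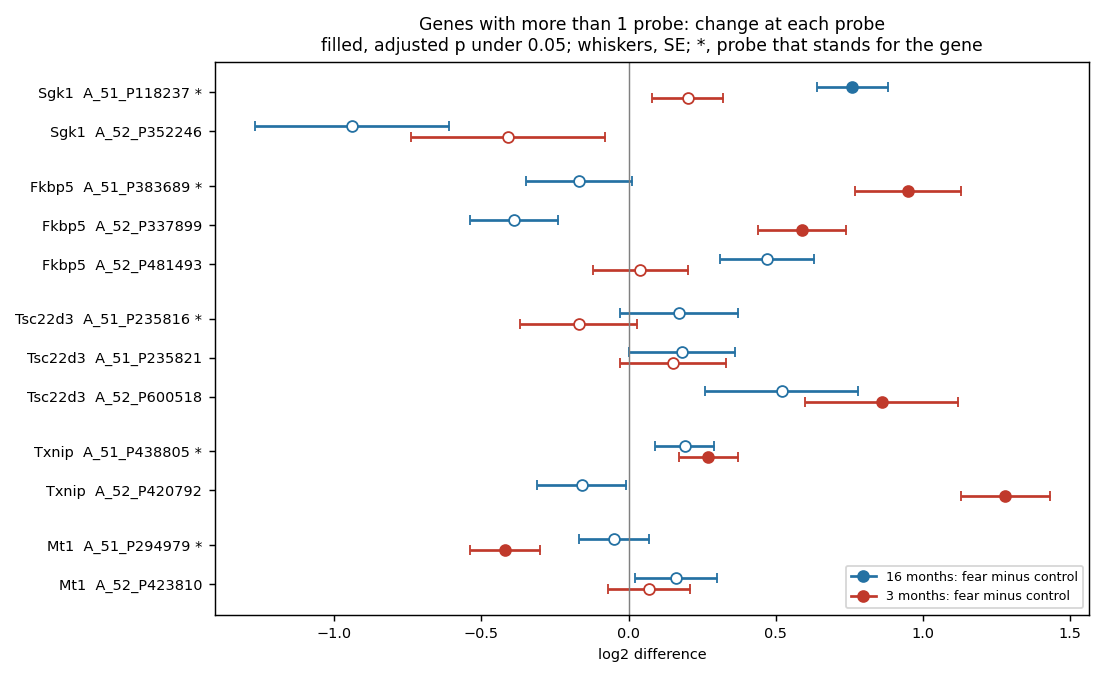
Fear minus control at each probe of the 5 members with more than 1 probe, at 16 months and at 3 months. Points are log2 differences with their SE from the fit of every probe, filled where the adjusted p is under 0.05, and asterisks mark the probes that stand for the genes. At 3 months the probes of a gene differ most for Txnip (0.27 and 1.28) and for Tsc22d3 (-0.17, 0.15 and 0.86).

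Pdk4 encodes pyruvate dehydrogenase kinase 4, which slows the entry of pyruvate into the citric acid cycle and spares glucose. Its level was -0.13, -0.08, -0.39 and -0.38 in 16-month fear mice, against -0.40, -0.07, 0.19 and 0.26 in 16-month controls. These groups overlapped, and the difference was -0.24 ± 0.15 (limma, adjusted p = 0.477). At 3 months its level was -0.90, -0.88, -1.55 and -1.40 in fear mice, against -0.15, -0.10, -0.42 and -0.32 in controls. All fear mice lay below all controls, and arrays 3 and 4 of the fear group were the lowest. The fall was -0.94 ± 0.15, or 1.92-fold (limma, adjusted p = 4.75e-05), and -0.59 relative to the median of all genes. The fear change differed between the ages by 0.70 ± 0.22 (limma, adjusted p = 0.022), a call that was lost in 4 of 14 other settings. It was also lost without any 1 of 16-month control array 1, 16-month fear array 2 and 3-month fear arrays 3 and 4 (values 0.57 to 0.80 over the arrays left out, adjusted p up to 0.055).

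Plin4 encodes perilipin 4, a protein of lipid droplets. Its level was -0.85, -1.04, -0.58 and -0.55 in 16-month fear mice, against -0.67, -0.50, -0.40 and -0.35 in 16-month controls. It was -1.62, -1.55, -1.73 and -1.78 in 3-month fear mice, against -1.10, -1.45, -1.17 and -0.95 in 3-month controls. At 16 months the groups overlapped and the difference was -0.27 ± 0.14 (limma, adjusted p = 0.383), although it was negative on all 4 slides. At 3 months they did not overlap, and Plin4 fell by 0.50 on the log2 scale (SE 0.14, limma, adjusted p = 0.00617), which is -0.16 relative to the median of all genes. That call was lost in 2 of 14 other settings, median scaling and averaged array pairs (adjusted p up to 0.0874). The difference between the ages did not pass (0.23 ± 0.20, adjusted p = 0.46).

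Plin4 was also the member that differed between the ages in untrained mice. In the controls listed above, every 16-month mouse lay above every 3-month mouse. The difference was 0.69 ± 0.14, or 1.61-fold (limma, adjusted p = 0.0201), and 0.43 to 0.95 on the 4 slides. It was the only call among 9 members, where 0.728% of all genes passed (0.475% higher and 0.253% lower). The call was lost in 4 of 14 other settings, and without 3-month control array 2 or 16-month control array 3 or 4 (0.59 to 0.76 over the arrays left out, adjusted p up to 0.0932). Sgk1 also had no overlap between control ages, with all 16-month controls below all 3-month controls, but its difference of -0.31 ± 0.12 did not pass (adjusted p = 0.326).

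Mt2 had the largest change of the 9 members in 3-month fear mice. Its level was 5.79, 6.09, 5.83 and 5.90 in 16-month fear mice, against 5.94, 6.28, 5.83 and 6.11 in 16-month controls. At 3 months it was 4.36, 4.47, 4.45 and 4.62 in fear mice, against 6.10, 6.29, 6.51 and 5.93 in controls. The groups overlapped at 16 months (-0.14 ± 0.13, limma, adjusted p = 0.649) and lay wholly apart at 3 months. The 3-month fall was -1.73 ± 0.13, or 3.32-fold (limma, adjusted p = 4.53e-09, n = 4 each), and -1.39 relative to the median of all genes. On the 4 slides it was -1.73, -1.82, -2.06 and -1.31. The call held in all 14 other settings (-1.73 to -1.19) and with any array left out (-1.82 to -1.63). The fear change differed between the ages by 1.59 ± 0.18 (limma, adjusted p = 5.34e-06), and that call held in all of these too.

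Mt1, the neighbour of Mt2 on chromosome 8, is read by a probe that is spotted 10 times on each array, and the sequence shown is that probe (mm9 chr8:96704011-96704070, + strand).
Mt1 probe A_51_P294979: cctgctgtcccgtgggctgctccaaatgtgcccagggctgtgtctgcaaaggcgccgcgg
The SD between the 10 spots of an array was 0.0754 on the log2 scale at the median array and at most 0.304. Its level was 4.2, 4.10, 4.63 and 4.44 in 16-month fear mice, against 4.29, 4.46, 4.30 and 4.53 in 16-month controls. At 3 months it was 3.80, 3.78, 4.12 and 4.04 in fear mice, against 4.42, 4.17, 4.42 and 4.39 in controls. Fear and control mice overlapped at 16 months and did not at 3 months. The change was -0.05 ± 0.12 at 16 months (limma, adjusted p = 0.88) and -0.42 ± 0.12, a 1.33-fold fall, at 3 months (adjusted p = 0.0102). Relative to the median of all genes the 3-month change was only -0.07. It was -0.02 under quantile normalization (adjusted p = 0.91) and was called in 9 of 14 other settings (adjusted p 0.00462 to 0.91). A second Mt1 probe, A_52_P423810, lies 167 bases away and did not pass at either age, with 0.16 ± 0.14 at 16 months (limma over every probe, adjusted p = 0.645) and 0.07 ± 0.14 at 3 months (adjusted p = 0.704). The call for Mt1 thus changed with the scaling, where that for Mt2 held in every setting run.

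Mt3 went the other way at 3 months. Its level was 2.35, 2.15, 2.92 and 2.44 in 16-month fear mice, against 2.39, 2.98, 2.58 and 2.64 in 16-month controls, and the groups overlapped. At 3 months it was 3.00, 2.98, 3.95 and 3.76 in fear mice, against 2.91, 2.76, 2.78 and 2.86 in controls. The 4 fear mice lay above the 4 controls, with fear arrays 3 and 4 far above and fear arrays 1 and 2 close to the controls. The change was -0.18 ± 0.19 at 16 months (limma, adjusted p = 0.692) and 0.60 ± 0.19, or 1.51-fold, at 3 months (adjusted p = 0.0156). On the slides the 3-month change was 0.09, 0.22, 1.18 and 0.90. Without fear array 3 or without fear array 4 the 3-month call was lost (0.42 and 0.48, adjusted p = 0.0738 and 0.062, over all arrays left out 0.00423 to 0.0738). The fear change differed between the ages by -0.78 ± 0.27 (limma, adjusted p = 0.0404). That call was lost in 11 of 16 fits that left out an array (-0.93 to -0.60, adjusted p up to 0.0964), and in 5 of 14 other settings.

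**Figure D4:**
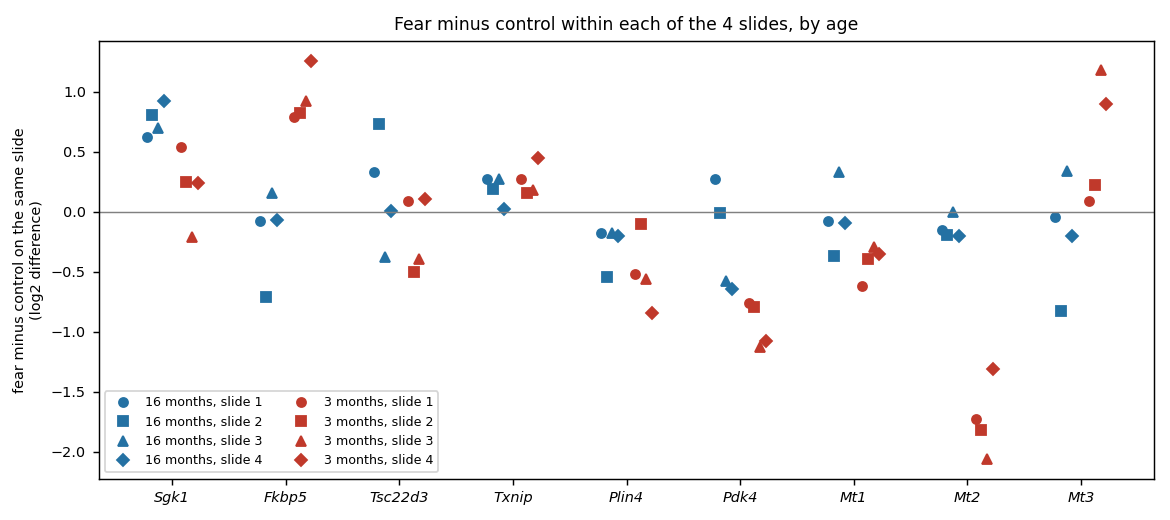
Fear minus control on the same slide for each member, at 16 months and at 3 months, as log2 differences of levels. Each symbol is 1 of the 4 slides, which hold 1 fear and 1 control array of each age. Sgk1 is above 0 on all 4 slides at 16 months, Fkbp5 is above 0 and Mt2 and Pdk4 are below 0 on all 4 slides at 3 months, and Mt3 at 3 months ranges from 0.09 to 1.18.

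Several members are also expressed in glia and in vessels, and marker genes of those cells are given as sums of linear levels, which the most abundant markers dominate. The 10 astrocyte markers summed to 207 to 231 in 16-month fear mice against 200 to 273 in 16-month controls, and to 164 to 175 in 3-month fear mice against 191 to 235 in 3-month controls. The 10 oligodendrocyte markers summed to 145 to 165 in 16-month fear mice against 153 to 185 in 16-month controls, and to 166 to 181 in 3-month fear mice against 136 to 145 in 3-month controls. The 10 microglia markers summed to 31.3 to 38.1 in 16-month fear mice against 35.5 to 40.6 in 16-month controls, and to 22.4 to 24.5 in 3-month fear mice against 28.5 to 35.4 in 3-month controls. The 10 endothelial and mural markers summed to 25.5 to 29.5 in 16-month fear mice against 20.4 to 33.7 in 16-month controls, and to 23.7 to 26.8 in 3-month fear mice against 28.2 to 35.4 in 3-month controls. At 3 months none of these 4 sums overlapped between the groups, and at 16 months all 4 did. Within each list, however, single markers went both ways at 3 months: 2 rose and 4 fell among astrocyte markers, 5 and 3 among oligodendrocyte markers, 2 and 3 among microglia markers and 4 and 3 among endothelial and mural markers. In that comparison 13.1% of all genes rose and 30.2% fell, so calls of both signs are not particular to these lists. The part of these markers in the changes of Mt2, Pdk4, Plin4, Fkbp5 and Mt3 was not tested.

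After fear conditioning, 16-month mice were set against 3-month mice directly. Mt2, Pdk4, Plin4 and Mt1 were higher and Mt3 and Fkbp5 were lower at 16 months, 6 of 9 members, where 37.9% of all genes passed (24.8% higher and 13% lower). The median of all genes was 0.26 in this comparison and that of the members 0.25. Mt2 was 1.43 ± 0.13 higher (limma, adjusted p = 4.49e-08) and Plin4 0.91 ± 0.14 higher (adjusted p = 2.45e-05). Mt3 differed by -0.96 ± 0.19 (adjusted p = 0.000411) and Fkbp5 by -0.86 ± 0.18 (adjusted p = 0.000732). For Mt1 the difference was 0.41 ± 0.12, or 0.15 relative to the median of all genes. It was called in 10 of 14 other settings (0.08 under quantile normalization, adjusted p = 0.727) and was lost without 16-month fear array 3 (0.31, adjusted p = 0.0572). At the second Txnip probe, A_52_P420792, the difference was -1.05 ± 0.15 (limma over every probe, adjusted p = 9.47e-06), against -0.04 ± 0.10 at the main probe. This comparison shares the fear arrays with those above and is no separate evidence.

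Context mice and shock-context mice shared the second run, and no member passed between them. Of 9 members 0 passed in limma, and so did 0% of all 26089 genes, while 1313 genes (5.03%) had an unadjusted p under 0.05 and quantile normalization called 1 gene. The unadjusted p of the members ran from 0.417 to 0.927, with 0 under 0.05. Sgk1 was at 3.85, 3.81, 3.61 and 4.09 in context mice, against 3.96, 3.78, 3.90 and 3.87 in shock-context mice, and Mt2 at 5.07, 4.90, 4.85 and 4.94 against 5.03, 4.87, 4.93 and 5.34. Both pairs of groups overlapped. The largest estimated differences were 0.11 ± 0.19 for Mt3 and -0.11 ± 0.13 for Mt2. A miss of the threshold does not show that the groups are alike.

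Against the 3-month controls of the first run, 8 of 9 members passed both in context mice, where 70.4% of all genes passed (14% higher and 56.3% lower), and in shock-context mice, where 66.8% passed (12.3% higher and 54.6% lower). Sgk1 was 0.98 ± 0.12 higher in context mice and 1.01 ± 0.12 higher in shock-context mice than in 3-month controls. Txnip, Plin4 and Fkbp5 were also higher in both at their main probes, by 0.60 to 0.82 on the log2 scale. The other Fkbp5 probes did not pass in either, with -0.25 ± 0.15 in context mice and -0.04 ± 0.15 in shock-context mice at A_52_P337899, and 0.16 ± 0.16 and 0.10 ± 0.16 at A_52_P481493. Mt2 was lower by -1.27 ± 0.13 in context mice and -1.16 ± 0.13 in shock-context mice, and Mt3, Mt1 and Pdk4 were lower too, Mt3 by -0.90 ± 0.19 and -1.0 ± 0.19. The median of all genes was -0.48 in context mice and -0.42 in shock-context mice. Relative to these medians Mt2 was at -0.78 and -0.74, and Mt3 at -0.41 and -0.58. Mt1 was at -0.23 and -0.27 relative to them, and Pdk4 at -0.18 and -0.21. The second Mt1 probe, A_52_P423810, passed in neither (-0.14 ± 0.14 in context mice and 0.07 ± 0.14 in shock-context mice). The second Txnip probe, A_52_P420792, was higher in both (0.38 ± 0.15 and 0.42 ± 0.15). The second Sgk1 probe, A_52_P352246, was lower in both (-2.67 ± 0.33 and -2.65 ± 0.33). It was well above background on no array of the second run. Tsc22d3 did not pass in either at its main probe, but its other probes were higher in both: A_51_P235821 by 0.70 ± 0.18 in context mice and 0.63 ± 0.18 in shock-context mice, and A_52_P600518 by 1.01 ± 0.26 and 1.04 ± 0.26. Choroid plexus markers summed to 29.8 to 69.0 in context mice and 35.6 to 80.2 in shock-context mice, ranges that overlap the 36.0 to 68.3 of the 3-month controls. Run and group cannot be told apart in these values, and the 2 comparisons share the same control arrays.

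Fear-conditioned 3-month mice were also set against context mice, where 6 of 9 members passed and 65.9% of all genes (47.6% higher and 18.3% lower), and against shock-context mice, where 5 of 9 passed and 64.9% of all genes (46.6% higher and 18.4% lower). Mt3 was 1.49 ± 0.19 and 1.60 ± 0.19 higher after fear conditioning than after context and shock-context. Plin4 was -1.32 ± 0.14 and -1.30 ± 0.14 lower, Sgk1 -0.78 ± 0.12 and -0.81 ± 0.12, and Mt2 -0.46 ± 0.13 and -0.57 ± 0.13. The second Sgk1 probe, A_52_P352246, was higher (2.26 ± 0.33 and 2.24 ± 0.33), but well above background on no array of the second run. Txnip was lower at its main probe (-0.52 ± 0.10 and -0.56 ± 0.10) and higher at A_52_P420792 (0.90 ± 0.15 and 0.86 ± 0.15, limma over every probe, adjusted p = 2.53e-05 and 4.59e-05). Mt1 was 0.30 ± 0.12 higher than in context mice (limma, adjusted p = 0.0369) and did not pass against shock-context (0.27 ± 0.12, adjusted p = 0.0595). The median of all genes was 0.33 against context and 0.31 against shock-context. Relative to these medians Mt1 was at -0.03 and -0.04. Fkbp5, Pdk4 and Tsc22d3 passed in neither at their main probes. Among their other probes, Fkbp5 A_52_P337899 was higher than in both (0.85 ± 0.15 and 0.64 ± 0.15, limma over every probe, adjusted p = 7.09e-05 and 0.00122), and Tsc22d3 A_51_P235821 was lower than in both (-0.54 ± 0.18 and -0.48 ± 0.18, adjusted p = 0.011 and 0.0241). These comparisons cross the runs as well.

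Of 20 other glucocorticoid-induced genes, 19 were measured. At 16 months 1 of them rose, Klf15 (0.48 ± 0.09, limma, adjusted p = 0.0303), which encodes a Krüppel-like transcription factor, and 0 fell. With normexp background correction or array pairs averaged, no gene passed at 16 months, so the calls of Klf15 and Fos were lost there. At 3 months 5 of the 19 rose and 6 fell, with a median of -0.16 against -0.34 over all genes. These counts, like those of the lists below, stand against the 0.142% of all genes that passed at 16 months and the 43.3% at 3 months (13.1% higher and 30.2% lower), so calls of both signs at 3 months are not particular to a list. Per1, a gene of the circadian clock, rose by 0.81 ± 0.11 (adjusted p = 5.3e-06). Dusp1, a phosphatase of MAP kinases, rose by 0.47 ± 0.14, Klf15 by 0.39 ± 0.09, Plekhf1 by 0.36 ± 0.14 and Klf9 by 0.34 ± 0.13. The genes that fell were Angptl4, an inhibitor of lipoprotein lipase (-0.82 ± 0.19), the transcription factor gene Cebpd (-0.80 ± 0.12), Bcl6 (-0.54 ± 0.17), the lipid transporter gene Mfsd2a (-0.43 ± 0.10), Fam107a (-0.41 ± 0.11) and Map3k6 (-0.34 ± 0.12). The fear change differed between the ages for Cebpd (0.61 ± 0.17) and Mfsd2a (0.58 ± 0.14), as the 16-month change minus the 3-month change.

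Nr3c1, the glucocorticoid receptor gene, differed by 0.20 ± 0.11 at 16 months (limma, adjusted p = 0.424) and by -0.13 ± 0.11 at 3 months (adjusted p = 0.341). Nr3c2, the mineralocorticoid receptor gene, differed by -0.25 ± 0.19 at 16 months (adjusted p = 0.559) and fell at 3 months (-0.66 ± 0.19, adjusted p = 0.00849), and the difference between the ages did not pass (0.41 ± 0.27, adjusted p = 0.318). Of all 14 genes of receptors and hormone handling, 0 passed at 16 months, and 3 rose and 3 fell at 3 months, where 43.3% of all genes passed, with a median of -0.13 against -0.34 over all genes. The coactivator gene Ncoa2 rose by 0.98 ± 0.24, the Hsp90 cochaperone gene Ptges3 by 0.44 ± 0.13 and the drug and steroid exporter gene Abcb1a by 0.38 ± 0.14. The chaperone genes Hsp90aa1 (-0.84 ± 0.14) and Hspa8 (-0.28 ± 0.10) fell. The difference between ages passed for Hsp90aa1 (0.69 ± 0.20) and Ptges3 (-0.51 ± 0.18).

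Mtf1, the metal sensor that drives Mt1 and Mt2, differed by 0.03 ± 0.10 at 16 months (limma, adjusted p = 0.927) and by -0.17 ± 0.10 at 3 months (adjusted p = 0.17). All 23 genes of zinc transport and metal sensing were measured, of which 0 passed at 16 months, and 6 rose and 4 fell at 3 months, a share near the 43.3% of all genes, with a median of 0.01 against -0.34 over all genes. The largest 3-month change was that of the zinc importer gene Slc39a4 (-2.86 ± 0.23, adjusted p = 1.4e-08), and its fear change differed between the ages by 2.51 ± 0.33. Among the Slc30a genes, most of which carry zinc out of the cytosol, Slc30a9 (0.73 ± 0.11), Slc30a10 (0.63 ± 0.12) and Slc30a4 (0.49 ± 0.10) rose and Slc30a7 fell (-0.40 ± 0.12). Among the Slc39a genes, which carry zinc into the cytosol, Slc39a14 (0.49 ± 0.14), Slc39a10 (0.41 ± 0.15) and Slc39a13 (0.32 ± 0.10) rose, and Slc39a11 (-0.68 ± 0.13) and Slc39a7 (-0.33 ± 0.11) fell. The difference between ages passed for Slc30a9 (-0.72 ± 0.15), Slc30a10 (-0.61 ± 0.17) and Slc30a7 (0.57 ± 0.17) as well.

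Relatives and partners of the members were followed as a last list of 18 genes. At 16 months 0 of them passed, and at 3 months 2 rose and 7 fell, where 13.1% of all genes rose and 30.2% fell, with a median of -0.24 against -0.34 over all genes. Plin2, a lipid droplet protein of the Plin4 family, fell by 1.09 on the log2 scale (SE 0.10, limma, adjusted p = 6.37e-08), and Plin1 (-0.68 ± 0.22) and Plin5 (-0.63 ± 0.17) fell too. Pdk1, of the Pdk4 family, fell (-0.62 ± 0.13), as did Txn1 (-0.63 ± 0.14) and Txn2 (-0.39 ± 0.10), the cytosolic and mitochondrial thioredoxins. Nedd4l, a ubiquitin ligase that Sgk1 phosphorylates, rose by 0.80 ± 0.19 (adjusted p = 0.00214). Of the Tsc22d3 family, Tsc22d1 rose (0.31 ± 0.08) and Tsc22d4 fell (-0.32 ± 0.10). The fear change at 16 months was higher than that at 3 months for Plin2 (1.05 ± 0.14), Txn1 (0.77 ± 0.19) and Pdk1 (0.64 ± 0.18). It was lower for Nedd4l (-0.81 ± 0.27) and Pdk2 (-0.70 ± 0.22).

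The genes most like a member were taken as the 5 highest Pearson correlations of log2 levels over the 16 control and fear arrays, which share groups and slides. For Mt2 they were Pomp, a proteasome assembly factor, Rpl34, a ribosomal protein, and the mitochondrial genes Atp5j2, Tomm7 and Ndufa1, with r of 0.986 to 0.992. For Sgk1 they were Unc13c, Pdp1, Hecw2, Egr2 and Ppp6r3, with lower r of 0.826 to 0.892. For Fkbp5 they were Snx27, Snrpn, Twnk, Rgs19 and Ring1, at 0.953 to 0.972. For Plin4 they were Plac9a, Chd7, Ccl4, Clec7a and C3, at 0.944 to 0.960. For Txnip they were Plekhg1, Gbx2, Syt9, Tnnt1 and Tcf7l2, at 0.871 to 0.887, and Tnnt1 and Tcf7l2 stand in the thalamus marker list. For Pdk4 the highest r was 0.977 with Zswim7, for Mt1 0.956 with Mlph, for Mt3 0.940 with Rgmb and for Tsc22d3 0.921 with Cadm1.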

How the data were processed

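Hippocampal RNA of 24 mice was hybridised to 24 Agilent 1-colour arrays. The authors deposited the scanner output, which per the file headers gives the processed intensity of each spot. The submitters' processing notes name Agilent Feature Extraction 9.5.3.1 and limma. The deposited table of the authors was taken to hold log2 values, from the values themselves. It served as an alternative.

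Levels are log2 of this signal minus the 75th percentile of the same array. Spots marked as outliers were dropped and the other spots of a probe averaged. A probe entered the tests when at least 4 of 24 arrays measured it well above background. The probe of highest mean stood for a gene, which left 26089 genes. Names were those of the newer annotation (mm9), updated through RefSeq. All 6 group means were fitted in limma 3.58.1 (R 4.3.3, statmod 1.5.0, 18 residual degrees of freedom), two-sided. The p-values were adjusted by Benjamini-Hochberg over the 26089 genes, and 0.05 was the threshold. Values for single probes come from the same fit on every probe. Tables and figures were made in Python 3.11.15 (pandas 2.3.3, numpy 2.4.6, matplotlib 3.10.9), and the fit was tested on simulated data.

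The replicate numbers were not treated as a pairing of mice, and the main fit held no term for the slide. In the first run the number is also the slide. Mice of that run with the same number deviated together from their group means (correlation over 0.1) in 15 of 24 cases (-0.415 to 0.653). The slide was fitted as a block in other settings and used for differences within slides. The number of arrays limits the precision. Members, gene lists and settings were chosen with earlier results of these data known. Every probe of a member is named, and from each list the genes past the threshold with fear conditioning or between the ages, plus Nr3c1, Nr3c2 and Mtf1. Zbtb16 is not reported here.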

Additional observations from a re-analysis of the deposited data

Results flagged for a closer look

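A single array stood apart from the other 3 of its group at 2 of 96 combinations of probe and group that were checked for this, and chance alone marks about 1 group in 20. At Mt1 probe A_51_P294979, 3-month control array 2 had a level of 4.17, where the other 3 lay at 4.39 to 4.42. At Tsc22d3 probe A_52_P600518, 16-month control array 2 had a level of -1.82, where the other 3 lay at -0.19 to -0.06.

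The change with fear conditioning differed between 16 and 3 months in the test of that difference (limma, adjusted p under 0.05) for Mt2 (1.59), Pdk4 (0.70), Sgk1 (0.56), Mt3 (-0.78) and Fkbp5 (-1.12), as log2 differences of the 16-month change minus the 3-month change. Among further probes it also differed for A_52_P337899 of Fkbp5 (-0.98) and A_52_P420792 of Txnip (-1.44).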

How the results depend on the processing

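Results were recomputed under 15 other settings and with each array left out. Of 10 counts of called members, the count for 3-month fear against control (7) was 3 with array pairs (arrays 1 and 2, and 3 and 4, of each fear and control group) averaged. For 16-month fear against control (1) it was 0 with normexp background correction, the deposited values, the slide as fixed block, array pairs as random block or averaged, and only the compared arrays. For the difference between ages (5) it was 3 with median scaling, normexp, the slide as fixed block, array pairs as random block and only the compared arrays, and 1 with array pairs averaged. For 16-month against 3-month controls (1) it was 0 with normexp, array pairs as random block or averaged, and only the compared arrays. With each array left out in turn these counts ran from 5 to 7, 0 to 1, 3 to 5 and 0 to 1 in the order just given. They ran from 5 to 7 for 16-month against 3-month fear (6), were 0 for context against shock-context, 8 for context and 8 to 9 for shock-context against control, and ran from 5 to 7 for 3-month fear against context and from 5 to 8 against shock-context, with 8 without 3-month fear array 1 or 2. The fit with the replicate block called 7, 1, 5 and 1 members in the first 4 of these and changed no single call with fear conditioning. Reversed signs were seen in uncalled values alone. For fear against control, Tsc22d3 at 3 months became 0.04 (quantile), 0.10 (deposited values) and, with 1 array left out, -0.29 to 0.01 (highest without control array 2). At 16 months Fkbp5 ran from -0.30 to 0.05 with 1 array left out (highest without control array 2), Mt1 became 0.01 (quantile), 0.01 (median scaling), 0.04 (deposited) and -0.15 to 0.03 with 1 array left out (highest without fear array 2), and Mt2 became 0.02 (quantile) and 0.21 (deposited). Between control ages Mt1 became -0.05 (normexp) and -0.01 to 0.08 with 1 array left out (lowest without 3-month array 2), Tsc22d3 -0.24 to 0.06 (highest without 3-month array 2), and Txnip -0.00 (without 3-month array 4) and -0.02 (without 16-month array 4). Between fear ages Sgk1 became -0.01 (quantile) and -0.03 (deposited). The causes were not tested. Signal over background limits the second Sgk1 probe alone.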
